A study of Mus musculus with 4 samples.

Results

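The gelsolin superfamily was followed in bone marrow derived macrophages (BMMs) that had been stimulated with RANKL, the cytokine that drives macrophages toward osteoclasts. Its 8 genes, Scin, Gsn, Capg, Flii, Svil, Avil, Vil1 and Vill, were taken by gene name from the 34745 genes of the table, and each name matched a single row. The 4 libraries came from wild-type BMMs of 8-week-old male C57BL/6 mice, kept without FBS for 12 h and then in complete medium with RANKL at 100 ng/mL for 24 h. In the RANKL+DI group (2 libraries) the medium also held dimethyl itaconate (DI), a membrane-permeable ester of the macrophage metabolite itaconate, and in the RANKL+Veh group (2 libraries) it held DMSO. The labels give the dose of DI as 20 mM, whereas the study's methods give the same figure in μM. No library without RANKL is among them, so induction by RANKL itself was not measured, and the labels do not say whether the libraries of a group came from separate mice or cultures. Libraries held between 16085692 and 19403480 counts. The comparison asks how DI altered the transcriptome of RANKL-treated BMMs.

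Proteins of this superfamily share the gelsolin-like repeat, a fold that binds actin and, in many members, calcium. Gelsolin and adseverin cut actin filaments and then stay on the fast-growing barbed end as a cap, and phosphoinositides such as PIP2 release them. In osteoclasts, actin is gathered into podosomes, short-lived adhesion dots that line up into the ring sealing off the bone surface, and gelsolin is a known podosome component. Adseverin, encoded by Scin, is known as a gene that is switched on during osteoclast differentiation. In the gene ontology terms that the authors attached to the table, all 8 members carry actin binding, 6 carry actin filament capping, 4 carry actin filament severing (Scin, Gsn, Flii and Vil1), 3 carry calcium ion binding (Scin, Gsn and Vil1) and 2 carry podosome (Gsn and Svil). Only Scin and Gsn of the family were assigned KEGG pathways there, the same 3 for both.

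The transcripts of Scin and Gsn aligned over 2160 bases at 64.1% identity, the longest alignment that either had with another member. They are the members given most attention here, so their upstream sequences are shown beside each other. These are the 250 bases before each start site from RefSeq on GRCm38, on the strand of the gene. Capitals mark the core motif of NFAT factors (GGAAA, either strand), the only one of 3 searched motifs that occurred in them.
Scin, chr12:40134229-40134478, minus strand: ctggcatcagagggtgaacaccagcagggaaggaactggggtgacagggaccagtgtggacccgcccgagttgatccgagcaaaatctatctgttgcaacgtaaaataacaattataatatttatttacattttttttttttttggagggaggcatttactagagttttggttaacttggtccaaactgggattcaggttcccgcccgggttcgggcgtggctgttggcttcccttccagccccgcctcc
Gsn, the first start, chr2:35256109-35256358, plus strand: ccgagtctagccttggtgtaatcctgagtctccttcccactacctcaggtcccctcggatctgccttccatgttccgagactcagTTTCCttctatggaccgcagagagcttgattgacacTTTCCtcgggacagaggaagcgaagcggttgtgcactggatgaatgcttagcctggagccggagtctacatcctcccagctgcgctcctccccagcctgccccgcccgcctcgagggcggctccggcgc
Gsn, the second start, chr2:35266494-35266743, plus strand: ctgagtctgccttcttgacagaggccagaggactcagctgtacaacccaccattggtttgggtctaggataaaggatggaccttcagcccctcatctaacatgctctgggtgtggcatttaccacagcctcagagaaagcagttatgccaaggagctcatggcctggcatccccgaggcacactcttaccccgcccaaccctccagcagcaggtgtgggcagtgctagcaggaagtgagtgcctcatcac
Gsn, the third start, chr2:35282130-35282379, plus strand: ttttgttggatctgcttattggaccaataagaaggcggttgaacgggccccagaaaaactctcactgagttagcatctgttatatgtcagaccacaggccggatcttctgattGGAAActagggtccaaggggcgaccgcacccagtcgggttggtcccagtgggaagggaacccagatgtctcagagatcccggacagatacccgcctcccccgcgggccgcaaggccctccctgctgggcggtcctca
The Scin window held no GGAAA, no AP-1 motif (TGANTCA) and no NRF2 motif (TGACNNNGC) on either strand. The first and the third Gsn windows held 2 and 1 GGAAA. Among all 32851 upstream windows of the same length, 55.6% held GGAAA, 6.75% held TGANTCA and 10.2% held TGACNNNGC, so a window with GGAAA is common. Of the other members with an upstream window, Avil held 1 GGAAA and Vill 1 TGACNNNGC, and those of Capg, Flii and Vil1 held none of the 3 motifs. The Capg window, chr6:72549397-72549646, lies inside the gene, which runs from 72544391 to 72562983. It overlaps 2 annotated untranslated features of transcripts, and the Vil1 window overlaps 1. Counts are given per gene, so reads from the 3 starts of Gsn are pooled.

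The 8 genes lie on 8 different chromosomes, and their start and end in the table were the same as in GENCODE M21 (GRCm38). Scin (ENSMUSG00000002565) lies on chromosome 12 from 40059769 to 40134228, with 2145 coding bases in 16 coding exons. Gsn (ENSMUSG00000026879) lies on chromosome 2 from 35256380 to 35307892, and Capg (ENSMUSG00000056737) on chromosome 6 from 72544391 to 72562983. The coding sequence of Capg is the shortest of the family, at 1047 bases, and that of Svil the longest, at 6771 bases. No exon of Scin, Gsn, Capg, Svil or Vill overlaps another gene. Flii shares 1.27% of its exon bases with Llgl1, Avil 4.86% with Tsfm and Vil1 1.38% with Usp37, each read from the opposite strand. Whether the counting used strand is not given in the sources used here, so a few reads of Avil and Vil1 could belong to those neighbours. No other transcript matched a member at 95% identity or more over at least 20% of its length.

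The family spans a wide range of levels in these cells, given here as FPKM (fragments per kilobase of gene and library size), which allow genes of different length to be compared. Levels, shares and ratios between genes rest on the gene lengths that the authors used for FPKM, which were not checked here. With vehicle, Capg stood highest at 227 ± 7.88 FPKM (SD, n = 2), followed by Gsn at 119 ± 3.28 and Flii at 53.6 ± 0.355 FPKM. Far below came Vill at 2.92 ± 0.536, Svil at 2.72 ± 0.120 and Scin at 1.37 ± 0.124 FPKM (SD, n = 2 each). Vil1 and Avil were hardly detected, with 3 counts each over all 4 libraries. The ranges of Vill and Svil overlapped with vehicle (2.54 to 3.30 against 2.63 to 2.80 FPKM), and those of all other neighbours in this order were separate. Capg made up between 54.8% and 56.1% of the summed FPKM of the family in each library and Gsn between 29.1% and 31.3%, while Scin held at most 0.351%. With DI the order of the members above the floor was the same, and Vill (2.84 to 3.06 FPKM) and Svil (2.79 to 2.82 FPKM) were narrowly separate.

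**Figure D1:**
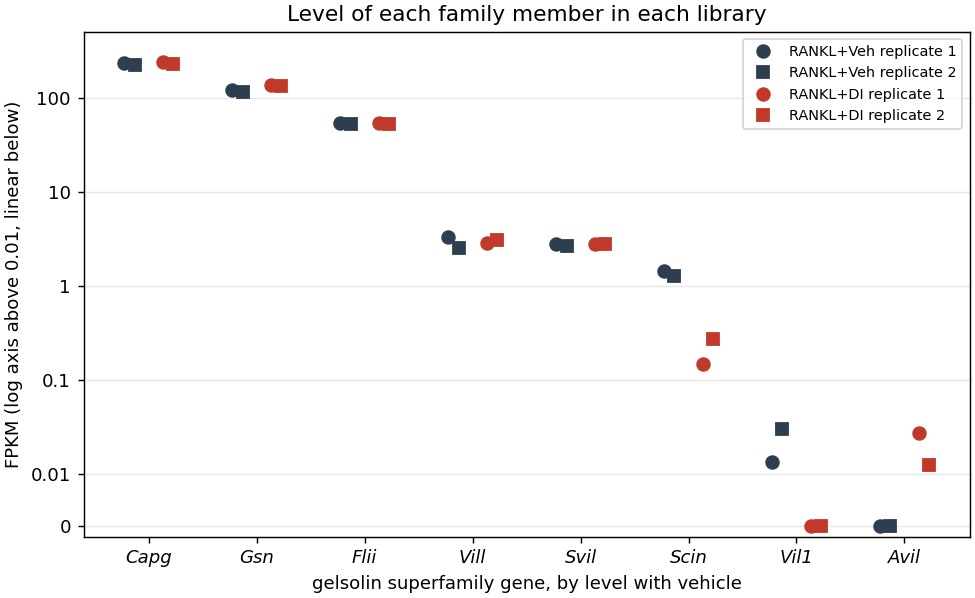
FPKM of the 8 family members (log axis above 0.01, linear below) in each of the 4 libraries, with circles for replicate 1 and squares for replicate 2. Capg, Gsn and Flii lie above 50 FPKM in every library, and Scin, at 1.28 to 1.46 FPKM with vehicle and 0.149 to 0.275 FPKM with DI, has the widest gap on the log axis among the 6 fitted members.

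The family was chosen by the difference of Scin between these same groups, so all differences of members between the groups are given as a description without a test. Scin, which encodes adseverin, was counted 11 and 22 times in the RANKL+DI libraries. In the RANKL+Veh libraries it was counted 108 and 85 times. The groups do not overlap, and both DI libraries lie far below both vehicle libraries. As CPM, the counts per library total after TMM scaling, this was 0.907 ± 0.376 with DI and 5.45 ± 0.491 with vehicle (SD, n = 2 each). The log2 fold change was -2.57 (standard error 0.29), that is, Scin was 5.92-fold lower with DI (95% interval 3.62 to 9.68). Of the 12590 genes that passed edgeR's filter on low counts, 13 had a lower log2 fold change. The family was chosen for this difference, and neither the rank nor the interval of Scin allows for that choice. The counts behind the fold change are small. The 95% Poisson intervals of the DI counts run from 5.49 to 19.7 and from 13.8 to 33.3, and they cover counting error only. Without RANKL+DI replicate 2 the log2 fold change was -3.07, and without RANKL+DI replicate 1 it was -2.21. In bulk RNA, fewer cells that express Scin and less Scin RNA per cell cannot be told apart.

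Gsn, the abundant severing member, stood on the other side. Its counts were 10686 and 11330 in the RANKL+DI libraries. In the RANKL+Veh libraries they were 9572 and 8235. Scaled to CPM, the level was 613 ± 12.95 with DI and 504 ± 13.7 with vehicle (SD, n = 2 each), and both DI libraries were above both vehicle libraries. Its log2 fold change was 0.28 (standard error 0.039, 95% interval 0.19 to 0.38), a level 21.7% higher with DI. When libraries were scaled by their size only, without the TMM factors that correct for differences in composition between libraries, it was 0.18. That scaling shifted the median of all tested genes from 0.0012 to -0.10 on the log2 scale, and the other members by about as much.

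Capg, which caps filament ends but does not cut them, had 17838 and 18536 counts with DI. With vehicle it had 17221 and 14670. In CPM these were 1013 ± 35.8 and 902 ± 30.9 (SD, n = 2 each). On the log2 scale Capg was higher by 0.17 (standard error 0.043, 95% interval 0.063 to 0.27). The groups did not overlap by CPM, but the FPKM of the lower DI library (232.2) was under that of the higher vehicle library (232.8), since FPKM is scaled by library size only. Flii encodes flightless, in which gelsolin-like repeats are joined to leucine-rich repeats and which also acts as a coregulator of nuclear receptors. In the DI libraries 5714 and 6080 reads fell on it, and in the vehicle libraries 5710 and 5061. Its FPKM of 53.7 ± 0.825 with DI and 53.6 ± 0.355 with vehicle (SD, n = 2 each) are close, while its log2 fold change on the TMM scale was 0.11 (95% interval 0.015 to 0.198) and with library size only it was 0.0029. On the TMM scale the interval runs from 1.04% to 14.7% higher.

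Svil encodes supervillin, a membrane-bound member that binds F-actin and myosin II and is found at podosomes. With DI there were 810 and 870 counts of it. With vehicle there were 810 and 681. Its log2 fold change was 0.15 (95% interval -0.014 to 0.31). Vill encodes a villin-like protein. The DI libraries had 355 and 416 counts of it, and the vehicle libraries 415 and 286, so that the DI libraries lie between the vehicle libraries by CPM. Its log2 fold change was 0.12 (standard error 0.14), and its 95% interval of -0.22 to 0.46 leaves changes from 14.3% lower to 37.4% higher. Without RANKL+Veh replicate 2 it was -0.05, and without RANKL+Veh replicate 1 it was 0.32.

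The epithelial and neuronal members were at or under the floor of 3 counts in every library, and were not fitted. Vil1, which encodes villin of intestinal microvilli, had 1 and 2 counts with vehicle and 0 in both DI libraries. Avil, which encodes advillin of sensory neurons and tuft cells, was at 0 in both vehicle libraries and at 2 and 1 counts in the DI libraries. A floor of 3 counts corresponds to 0.160 to 0.180 CPM, and no fold is given at these levels.

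In all, 6 of the 8 members passed the filter. The ranges of the groups by CPM did not overlap for 5 of them (Scin, Gsn, Capg, Flii and Svil), against 58.6% of all tested genes. The quasi-likelihood fit over all genes called 2 of them at an adjusted p under 0.05, Scin lower and Gsn higher, where it called 14.8% of all tested genes, 7.14% higher and 7.7% lower. Since the contrast served to choose the family, nothing is read from these counts.

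**Figure D2:**
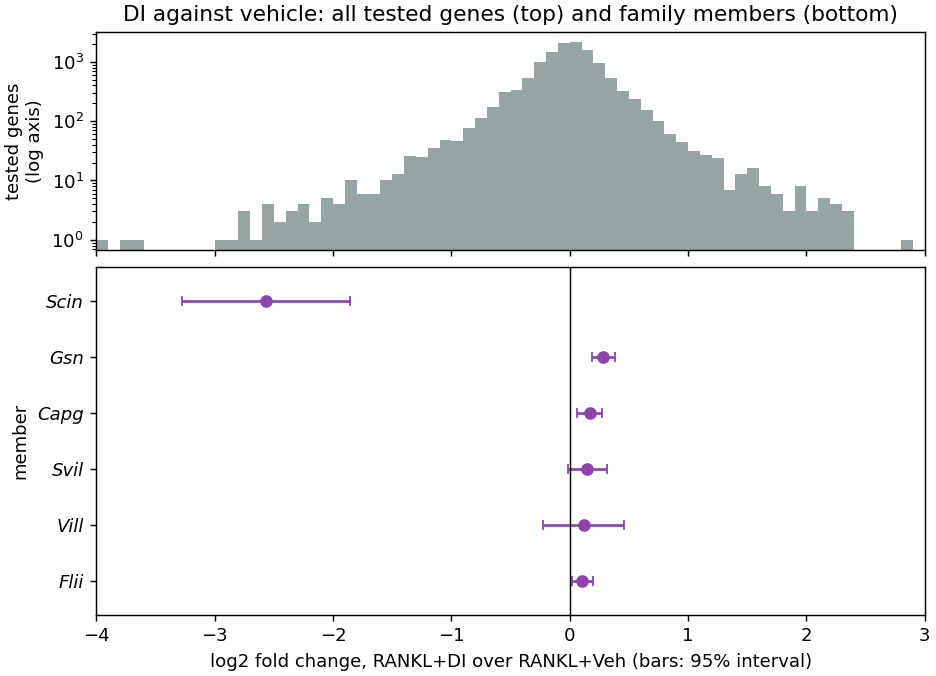
Log2 fold change of RANKL+DI over RANKL+Veh for all tested genes (top, histogram with a log axis, 2 genes outside the range not drawn) and for the 6 fitted family members (bottom, points with 95% intervals). Scin, at -2.57, stands apart from the other members, which lie between 0.11 and 0.28.

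Ratios between members of the same library do not depend on how libraries are scaled. For each 1000 FPKM of Gsn there were 1.10 and 2.07 FPKM of Scin in the DI libraries. In the vehicle libraries there were 12.0 and 11.0. The ratio of Gsn to Flii was 2.50 and 2.49 with DI and 2.24 and 2.18 with vehicle, so Gsn was higher relative to Flii in both DI libraries. The ratio of Gsn to Capg was 0.560 and 0.571 with DI and 0.519 and 0.524 with vehicle. The ratio of Capg to Flii was 4.47 and 4.37 with DI and 4.32 and 4.15 with vehicle, a gap between the groups that is smaller than the gap between the replicates of either. The ratio of Vill to Svil, 1.01 and 1.10 with DI and 1.18 and 0.965 with vehicle, overlapped between the groups.

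**Figure D3:**
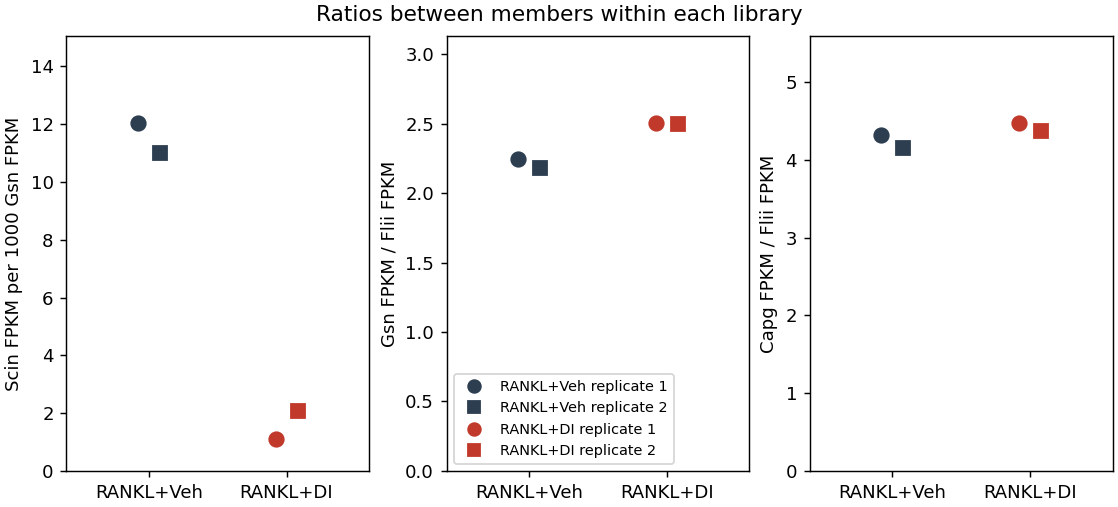
Ratios of FPKM between members within each of the 4 libraries, with axes starting at 0 and circles and squares for replicates 1 and 2. Scin per 1000 Gsn is 11.0 and 12.0 with vehicle and 1.10 and 2.07 with DI, whereas Gsn over Flii goes from 2.18 and 2.24 to 2.49 and 2.50.

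The 8 members together took 0.198% and 0.192% of all counts in the DI libraries, and 0.188% and 0.180% in the vehicle libraries. The summed level was 2024 ± 54.0 CPM with DI and 1778 ± 52.4 CPM with vehicle (SD, n = 2 each), a log2 ratio of 0.19. With library size only the ratio was 0.083 and as a sum of FPKM it was 0.087. Scin contributed 226 of the counts in all, against 39823 for Gsn, so the sum hardly registers it.

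**Figure D4:**
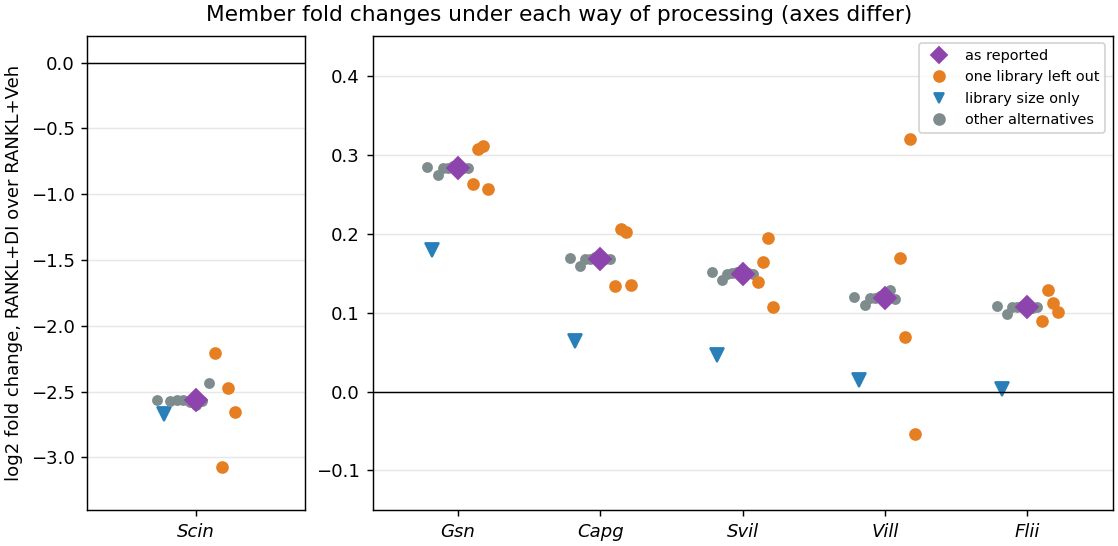
Log2 fold change of the 6 fitted members as reported (diamonds), with each library left out in turn (orange circles), with library size only (blue triangles) and under the other alternatives (grey circles). The vertical axes of the panels differ. Scin stays between -3.07 and -2.21, Gsn between 0.18 and 0.31, and Vill crosses 0 when RANKL+Veh replicate 2 is left out.

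Actin regulators outside the family were taken from 7 lists by role, with 80 of 84 genes tested. With DI, 11 of them rose and 5 fell (quasi-likelihood test of edgeR, adjusted p under 0.05), or 20.0% against 14.8% of all tested genes, with a median log2 fold change of 0.019. With library size only, 3 rose and 14 fell. The count moved with single libraries, as 4 genes were called without RANKL+DI replicate 2, 9 without RANKL+Veh replicate 1 and 7 without RANKL+Veh replicate 2. The replicate number as a block gave 7. Over all tested genes, library size only called 548 higher and 1932 lower, which bears on the lists below as well. The count of all called genes was also lower with each library left out and with the block.

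The list for cutting or taking apart filaments outside the family holds the cofilin group, its helpers and regulators such as the kinases Limk1 and Limk2. Of its 16 genes, 2 were called. Both rose: Coro1b, a coronin, by 0.25 and Wdr1, which speeds up cofilin, by 0.18 on the log2 scale. Of the barbed-end capping and elongation genes, 3 of 11 were called. Evl, an Ena/VASP elongation factor, rose by 0.51 and Capzb, the beta subunit of the other main barbed-end cap, by 0.16. Vasp, a relative of Evl, fell by 0.25 on the log2 scale. Among 23 genes of nucleation, 3 rose and 3 fell, with Hcls1 at 0.23 and Diap1 at 0.17 on one side and Cttn, cortactin of podosomes and invadopodia, at -0.66 and the formin gene Diap3 at -0.54 on the other.

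Of the monomer-binding genes, 3 of 7 were called and all rose, with Pfn2, a profilin, at 1.01 (standard error 0.22, 3.67 CPM with DI) and Tmsb10 at 0.22. Of the actins, 1 of 4 was called, smooth muscle actin Acta2, which rose by 0.77 (standard error 0.12). Actb, cytoplasmic beta-actin, was at -0.54 and did not pass (adjusted p = 0.0633, edgeR), with the vehicle libraries far apart at 2001 ± 485 CPM (SD, n = 2). None of the 6 PIP2 kinase genes was called. With library size only, Coro1b, Wdr1, Capzb, Hcls1, Diap1 and Tmsb10 kept their sign but were no longer called. Over the 13 alternatives, of which the prior count of 2 leaves the test as it is, Evl and Diap3 were called in all. Acta2 was called in 12, Coro1b, Vasp and Hcls1 in 10 each, Cttn and Tmsb10 in 8 each, Pfn2, Wdr1 and Diap1 in 7 each and Capzb in 5.

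The KEGG pathway Regulation of actin cytoskeleton, to which the authors' annotation assigns Scin and Gsn, has 211 other genes, of which 147 were tested. With DI, 14 rose and 13 fell (18.4% called), with a median log2 fold change of 0.026. With library size only, 7 rose and 24 fell, and without RANKL+Veh replicate 2 a total of 17 were called. The integrin gene Itga8 rose by 0.93 (standard error 0.13) and Pfn2, also in the monomer-binding list, by 1.01, while Iqgap3 fell by 0.67 and Pdgfa by 0.59 on the log2 scale (standard errors 0.063 and 0.12). Itga8 and Iqgap3 were called in all 13 alternatives and Pdgfa in 11. Fc gamma R-mediated phagocytosis, also shared by Scin and Gsn, had 9 genes that rose and 7 that fell among 76 tested, with a median of 0.066. With library size only this was 7 and 14, with a median of -0.04, and without RANKL+DI replicate 2 it was 7 and 3.

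**Figure D5:**
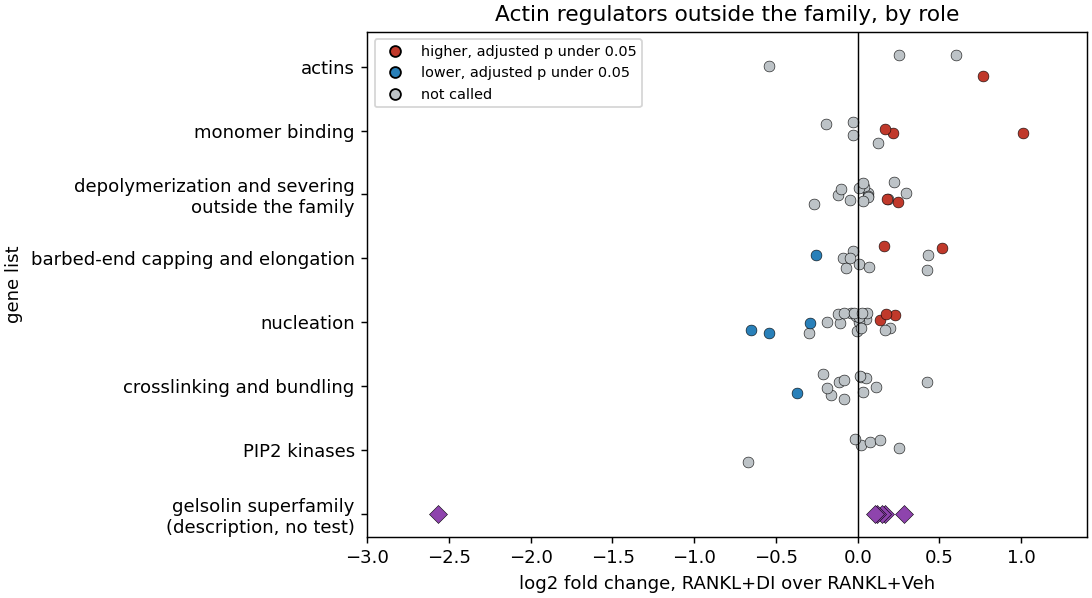
Log2 fold change of RANKL+DI over RANKL+Veh for each tested gene of the 7 actin regulator lists (circles, red or blue where called at an adjusted p under 0.05, grey otherwise, spread vertically at random) and for the 6 fitted family members (diamonds). The 80 tested genes lie between -0.67 and 1.01, and Scin, whose difference chose the family, is drawn at -2.57.

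The genes whose profile over the 4 libraries lay closest to that of Scin, by the root mean square difference of centred log2 CPM, were Rufy4 (0.10), Mycl (0.23), Ifit1bl1 (0.26), Ifit3b (0.30) and Zfp46 (0.30). Rufy4 was counted 2 and 5 times with DI against 28 and 21 times with vehicle, so its closeness rests on very few reads. Ifit1bl1, at 7 and 16 counts, and Ifit3b, at 8 and 9, were also counted few times with DI, as was Scin. With 4 libraries in only 2 conditions, such a profile is mostly the fold change itself.

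The markers of the labelled cell type were present, with 9 of 9 macrophage markers above 3 counts and summed levels of 28755 to 29558 CPM with DI and 22571 to 23450 CPM with vehicle, most of it Lyz2. Of these, 5 rose and 2 fell (Fcgr1 and Cd14). Itgam, among those that rose, was at 0.57 on the log2 scale. A second entry of the same name was at 0.16 and was not called. Osteoclast genes were present at lower levels, 9 of 10 detected, with Calcr at 0. Of the 8 tested, Ocstamp fell by 2.52, Mmp9 by 1.64, Acp5 by 0.95, Ctsk by 0.58 and Nfatc1 by 0.43 on the log2 scale. Itgb3 rose by 0.56 and Atp6v0d2 by 0.27, and Dcstamp, at -0.19, was not called. The osteoclast genes summed to 714 to 730 CPM with DI and 740 to 763 CPM with vehicle, most of it Atp6v0d2. Whether the level of Scin moved with the share of cells on the way to osteoclasts was not tested.

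Cell types that are known for high levels of a member were looked at through their markers. Stromal cells, rich in Gsn, had 7 of 8 markers detected, summing to 41.6 to 43.5 CPM with DI and 44.6 to 51.7 CPM with vehicle. Only 5 of these markers were tested, and none was called. Megakaryocyte and platelet markers, of cells that are rich in gelsolin, summed to 57.7 to 57.8 CPM with DI and 32.6 to 33.0 CPM with vehicle, nearly all of it Pf4, which macrophages also express, with Gp9 and Gp6 at 0 in all libraries. Their sum is higher with DI, as is Gsn, whereas the sum of the stromal markers is lower with DI. Epithelial markers summed to at most 0.720 CPM, with Epcam, Krt18 and Krt19 at 0, and tuft cell and sensory neuron markers to at most 1.29 CPM, with Pou2f3, Scn10a, Trpv1 and Isl1 at 0. Markers of neutrophils summed to 5.90 to 8.68 CPM, and those of B cells, T and NK cells, mast cells and basophils, and erythroid cells to at most 0.699 CPM. Their part in the levels of Gsn and Scin was not tested.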

How the data were processed

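RNA was measured in RANKL-treated BMMs with DI or vehicle, 2 libraries each, grouped by their labels. For each library the authors deposited, side by side, unnormalized counts and FPKM values of every gene. FPKM are scaled by length and library size only, so they differ from CPM, which carry the TMM factors. The submitters' processing notes name GRCm38 and mm10, and the aligner and counter are not given in the sources used here. A second deposited table repeats these values and adds gene ontology and KEGG terms.

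Counts were fitted in R 4.3.3 with edgeR 4.0.16 (TMM factors, default filter on low counts, quasi-likelihood test with the condition as its only term, Benjamini-Hochberg adjustment over 12590 genes), with 2 residual degrees of freedom before moderation. Intervals are 95% intervals of that fit, and p-values measure only the spread between these libraries. Libraries of a group differed by more than sampling noise (chi-square per degree of freedom 8.06 and 8.23). The steps were tested on simulated data. The changes simulated there were larger than most given here, so smaller ones were not covered.

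Alternatives were DESeq2 size factors, library size only, upper quartile factors, no filter, a minimum of 10 counts in every library, DESeq2 1.42.0, limma-voom (limma 3.58.1), a prior count of 2, the replicate number as a block and each library left out. Named genes are the members, at most the 2 highest and 2 lowest called genes of each list with an average log2 CPM over 1, the 5 genes most like Scin, overlapping genes, and cell type markers. Actb and the other osteoclast genes given were named after their values were seen. Transcripts were compared by BLAST+ 2.17.0. The members and lists were chosen with earlier results of these data known. The result for the crosslinking and bundling genes by name is not reported here.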

Additional observations from a re-analysis of the deposited data

How the results depend on the processing

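The log2 fold change of Scin, -2.57 as reported, was below 0 and that of Gsn above 0 in the 13 alternatives, a description only, since the family was chosen by this contrast. The call of Capg differed from the reported one in 6 of them, and nothing is read from calls of members. With each library left out, Scin ranged from -3.07 to -2.21, the count of all called genes from 1087 to 1394 (1868 as reported), that of the 7 actin lists from 4 to 11 (16 as reported) and that of the KEGG actin pathway from 17 to 23 (27 as reported). Each lone library was then assumed to vary like the other group. The summed level of the family, 0.19 as reported, was 0.083 with library size only and 0.087 as a sum of FPKM. With library size only, 22.1% of the called genes were higher with DI, against 48.1% with TMM.

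The labels number the libraries 1 and 2 in both groups but do not say that a number marks a shared animal or day, and the deviations of same-numbered libraries were hardly correlated (-0.025). With the replicate block 1389 genes were called, 7 of them in the actin lists. Tests of log2(FPKM) were planned only for files without counts and were not run. The depth limits Scin, Vil1 and Avil, whose counts are few.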
